A study of Homo sapiens with 21 samples.

Results

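The comparison described here set H1975 cells given osimertinib and linsitinib together against H1975 cells given vehicle, by RNA sequencing. It covers the 13775 of 34021 genes in the table that reached 1 FPKM, a unit of expression level, in at least 3 of 9 libraries, and it rests on 6 of the 21 samples of the series: the 3 libraries whose columns are named OL+EV, here called Osi_Lin_EV, and the 3 named DMSO+EV, here called DMSO_EV. H1975 is an established human cell line of lung adenocarcinoma with mutant EGFR, the gene of the epidermal growth factor receptor. DMSO_EV was cultured with DMSO. Osi_Lin_EV was cultured with 2 kinase inhibitors at 500 nM each. Osimertinib binds mutant EGFR covalently. Linsitinib blocks IGF1R, the receptor of insulin-like growth factors, and the closely related insulin receptor. The RNA of both groups is labelled as taken at 8 days. The titles of both carry EV, which the labels leave unexplained, and the treatment label of Osi_Lin_EV omits it. Another 3 libraries, Osi_cIGF1R, had 500 nM osimertinib with an overexpressed circular RNA of IGF1R and no linsitinib. They entered the same fit and are set beside single genes below. No RNA-seq group with either drug alone was analysed here, so what osimertinib did and what linsitinib did cannot be told apart. All libraries came from 1 cell line, and whether separate cultures were harvested for the replicates is not given in the labels. The p-values therefore cover only library-to-library spread, which may be technical.

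EGFR and IGF1R are receptor tyrosine kinases at the cell surface. When a ligand binds, or when a mutation keeps the kinase on, they signal through the RAS-ERK cascade and through PI3K, AKT and mTOR, and so drive growth, protein synthesis and division. Lung adenocarcinoma cells with mutant EGFR depend on it, and IGF1R is known as a receptor that can keep PI3K signalling going when EGFR is blocked. Genes of the cell cycle, of ERK output and of MYC targets are the familiar readouts of such a block. They were set aside here as 3 lists, and the text below turns to genes outside these lists. The lists are not complete, so genes and gene lists below may still belong to these functions. Counts given without members of the set-aside lists therefore do not remove all such genes. How far the falls below are separate from these functions was not tested.

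Levels are given in FPKM, fragments scaled to gene length and to the total of the library, in the order of the replicate numbers. Where 3 values are set against 3, the vehicle libraries come first. The file names no unit, and FPKM was inferred from its values. Read depth per library is therefore unknown and no counting interval was computed. Fold changes are differences of log2(FPKM + 1), which understates the change of low genes, and a gene rose or fell where limma's Benjamini-Hochberg adjusted p was under 0.05. Of 13775 genes tested, 3999 rose (29.0%) and 3242 fell (23.5%), 52.6% in all, and 503 (3.65%) and 763 (5.54%) did so by at least 1 on the log2 scale. The groups did not overlap for 61.9% of tested genes. The median log2 fold change of all tested genes was 0.053. Of the tested genes, 808 reached 1 FPKM in exactly 3 libraries, and 431 that did so in exactly 2 were not tested. Where those 3 libraries form 1 group, the gene entered the test only through the group where it is high. Under median-of-ratios rescaling, 3548 rose and 3684 fell. DMSO_EV replicate 2 stood apart from the other vehicle libraries on RN7SL1, the RNA of the signal recognition particle, with 443 FPKM against 46.4 and 36.1. It did so too on RN7SK, with 177 against 11.5 and 9.43, and on RMRP, with 162 against 11.4 and 6.87. Without DMSO_EV replicate 2, 3459 genes rose and 2680 fell. Whether RNase R, an enzyme that degrades linear RNA, was used on the RNA of these libraries cannot be read from the labels.

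Markers of an epithelial lung line were present in both groups. The 13 epithelial markers summed to between 11320 and 12581 FPKM in the vehicle libraries and between 13437 and 14619 in the treated libraries. EPCAM, an epithelial adhesion molecule, stood at 105, 92.1 and 99.1 in DMSO_EV and 85.99, 97.6 and 99.1 in Osi_Lin_EV. NKX2-1, the lung lineage factor, and the adhesion molecule CEACAM5 lay under 1 FPKM in all 6 libraries. ELF3, an epithelial transcription factor, rose to 146 ± 3.86 from 72.96 ± 3.19 FPKM (SD, n = 3), and CEACAM6, an adhesion molecule of tumour epithelium, fell to 0.467 ± 0.145 from 4.63 ± 1.85. Among other cell types, the fibroblast markers COL1A2 and DCN, the endothelial markers PECAM1 and VWF, the leukocyte marker PTPRC, the surfactant gene SFTPC and the club cell gene SCGB1A1 were under 1 FPKM in all 6 libraries, and CD3D was at 0. The fibroblast list summed to 3.56 to 3.96 FPKM in DMSO_EV and 3.35 to 3.83 in Osi_Lin_EV. In it 6 of 7 genes were under 1 FPKM in all 6 libraries, and the other, COL1A1, did not pass (limma adjusted p = 0.497). The airway list summed to 15.6 to 18.6 FPKM in DMSO_EV and 34.4 to 37.9 in Osi_Lin_EV. In it CAPS, a calcium-binding protein of ciliated cells, KRT15, a basal keratin, and BPIFB1, a secreted airway protein, rose, and the basal keratin KRT5 fell. In the alveolar type 2 list, which summed to 36.3 to 41.2 FPKM against 57.6 to 59.9, 2 of 4 tested genes rose and 1 fell, the transcription factor gene ETV5, which also stands in the ERK-output list. The lipid transporter ABCA3 rose to 4.74 ± 0.0509 from 2.48 ± 0.394 and the acyltransferase LPCAT1 to 50.9 ± 0.875 from 28.4 ± 1.22 (SD, n = 3). In the alveolar type 1 list (63.4 to 86.0 against 47.2 to 54.5), CAV1, of caveolae, and RTKN2, a signalling scaffold, fell and 0 rose of 4. In the leukocyte list (25.6 to 33.5 against 31.9 to 36.9), 2 of 4 rose and 0 fell: CSF1R, a myeloid growth factor receptor, rose to 6.57 ± 0.218 from 3.14 ± 0.666 and the integrin ITGAM to 1.22 ± 0.146 from 0.31 ± 0.0887. ITGAM, ETV5, KRT5 and the only endothelial fall were not tested where 1 library of their higher group was left out. The neuroendocrine list summed to 293 to 300 FPKM against 180 to 202, nearly all of it UCHL1, a deubiquitinase that is also broadly expressed in tumours. In bulk RNA, more cells of a kind and more RNA per cell cannot be told apart, and the part of these marker differences in the results below was not tested.

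The 3 lists set aside held most of the largest falls. In them, 299 of 368 cell-cycle genes, 41 of 55 ERK outputs and 113 of 119 MYC and ribosome biogenesis genes fell, against 23.5% of all tested genes. Of the 50 largest falls 46 were in these lists, and of the 50 largest rises only 2. The genes named below are the 20 largest rises and the 20 largest falls outside these lists with no overlap of the groups and a higher mean of at least 5 FPKM, and up to 4 called members of each of 57 gene lists whose higher mean reached 2 FPKM. Other genes are said to have been chosen after their values were seen.

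The 20 largest rises ran from a log2 fold change of 4.28 for IGFBP5, which binds insulin-like growth factors outside the cell, to 2.11 for UPK2, and all 20 were protein-coding. CFD, the complement serine protease known as factor D, stood at 34.9, 37.8 and 32.4 FPKM in the vehicle libraries and 176, 193 and 170.5 in the treated libraries. Its level thus rose 5.13-fold from an already moderate level (log2 fold change 2.33, SE 0.13, limma adjusted p = 6.53e-09). PSCA, a GPI-anchored surface antigen, stood at 87.2, 97.5 and 86.1 in vehicle and 398, 408 and 371 under both drugs (log2 fold change 2.11, SE 0.12). GABRE, the epsilon subunit of the GABA-A receptor, stood at 72.1, 44.3 and 44.2 against 251, 262 and 271 FPKM, so vehicle replicate 1 was the highest of its group and still far below every treated library. No vehicle library of these genes came near the treated range. The folate receptor gene FOLR1 rose to 11.7 ± 0.355 from 1.82 ± 0.31 FPKM (SD, n = 3). NRCAM, an adhesion molecule of the L1 family, rose to 6.08 ± 0.345 from 0.538 ± 0.077. UPK2, a membrane protein best known from urothelium, stood at 13.2, 12.99 and 12.1 against 55.98, 62.2 and 56.9. SYNPO, an actin-binding protein known from podocytes, rose to 21.98 ± 1.49 from 3.73 ± 0.547. The rises also held VTCN1, a B7-family protein that restrains T cells, ATP6V1B1, of the vacuolar proton pump, APOD, a lipocalin, and NPNT, a basement membrane ligand of integrins. Their log2 fold changes were 2.87, 2.86, 2.83 and 2.77.

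Other rises were of intracellular proteins. RGL1, an effector that links RAS to RAL GTPases, stood at 0.905, 1.29 and 1.23 FPKM in vehicle and 11.7, 10.1 and 10.04 in treated libraries. RASSF4, a RAS association domain protein, stood at 0.914, 1.43 and 0.965 against 10.1, 9.15 and 9.66. FAM83E, of a family of scaffold proteins for casein kinases, stood at 1.98, 1.84 and 1.68 against 13.6, 14.5 and 14.6. The 3 genes were low in every vehicle library and lay between 9.15 and 14.6 FPKM in every treated one. TSC22D3, a leucine zipper protein known as GILZ, rose 5.899-fold to 26.3 ± 3.05 FPKM (log2 fold change 2.33, SE 0.14).

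The falls outside the set-aside lists were led by MYEOV, a gene of chromosome 11 that lies near CCND1. It stood at 23.8, 28.2 and 25.6 FPKM in vehicle and 0.935, 0.563 and 0.787 in treated libraries, a ratio of means of 0.0295 (log2 fold change -3.93, SE 0.11, limma adjusted p = 2.3e-11). SLC43A3, a purine nucleobase transporter, stood at 28.9, 36.4 and 37.7 against 2.44, 2.51 and 2.36. No treated library of either gene came near the vehicle range. NME1, a nucleoside diphosphate kinase, fell to 18.6 ± 1.28 from 110.2 ± 7.62 FPKM (SD, n = 3), and was the most abundant of the 20. TFF1, a trefoil peptide of mucosal surfaces, stood at 31.4, 37.3 and 26.2 against 2.94, 2.92 and 2.28. The neuropeptide gene GAL stood at 27.3, 23.96 and 20.1 against 1.34, 2.21 and 2.57. The glycoprotein hormone gene STC2 stood at 19.1, 18.8 and 20.7 against 3.11, 2.99 and 3.35. The treated libraries of all 3 lay far below the lowest vehicle library.

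Among the other falls, ITGA2, the collagen-binding integrin subunit, stood at 5.58, 6.33 and 9.54 FPKM in vehicle and 0.257, 0.231 and 0.154 under both drugs. ANKRD1, a nuclear ankyrin repeat protein and a known target of YAP, stood at 8.53, 7.32 and 9.88 against 0.212, 0.317 and 0.289. COL8A1, a short-chain collagen, fell to 0.615 ± 0.0831 from 7.36 ± 1.52 (SD, n = 3). In these 3 genes every treated library was under 1 FPKM. LRP8, a receptor for apolipoprotein E and reelin, fell to 2.81 ± 0.343 from 19.1 ± 2.06. ERRFI1, a feedback inhibitor of EGFR, stood at 30.1, 34.1 and 41.8 against 4.16, 4.46 and 4.64. The list also held CDKN3, a phosphatase of cyclin-dependent kinases that is a cell-cycle gene in function though not in the set-aside list (4.97 ± 1.13 from 54.3 ± 1.74). MIG7 had no match in RefSeq, and LOC105369370 and MIR4435-2HG are noncoding, so 17 of the 20 were protein-coding. Of the 20, CTNNAL1, FAM111B, MIG7 and NOG entered the test only through the vehicle libraries.

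**Figure D1:**
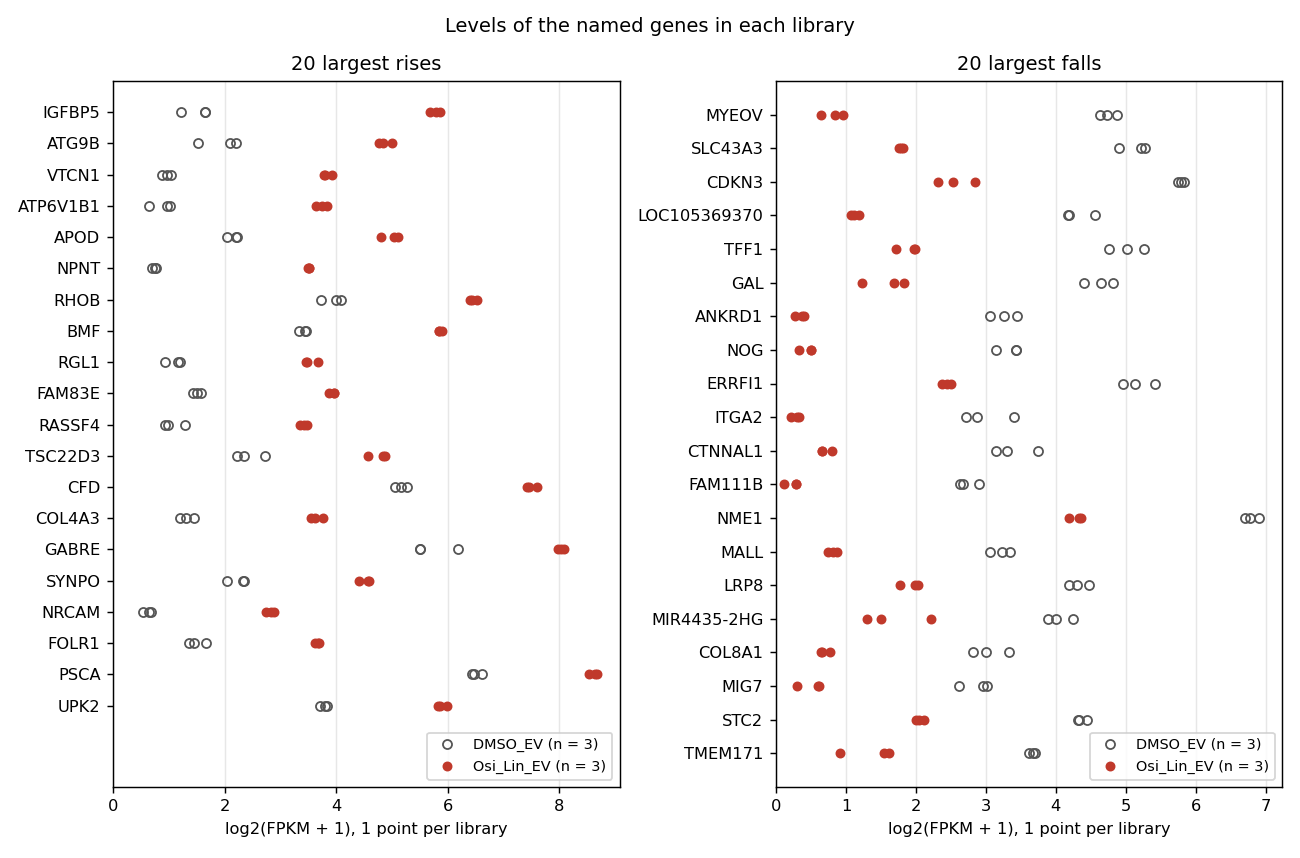
The x axis gives log2(FPKM + 1), with 1 point per library, for the 20 largest rises on the left and the 20 largest falls on the right. Open grey circles are the 3 DMSO_EV libraries and filled red circles the 3 Osi_Lin_EV libraries of each gene. The groups do not overlap for any of the 40 genes, as the naming rule required, and the libraries of a group lie close together against the gap between groups.

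These 40 genes were also compared between the 2 treated groups, Osi_Lin_EV and Osi_cIGF1R, which differ both in linsitinib and in the circular RNA, so the 2 cannot be told apart. At an adjusted p under 0.05, 60.7% of all tested genes differed between them. Of the 20 rises, 6 were higher in Osi_Lin_EV, 9 were lower and 5 did not pass. Of the 20 falls, 6 were higher, 9 lower and 5 did not pass. STC2 showed a large difference: it stood at 16.1, 16.6 and 15.6 FPKM in Osi_cIGF1R, against 3.11, 2.99 and 3.35 in Osi_Lin_EV (log2 difference -2.04, limma adjusted p = 2.74e-10). RHOB, a small GTPase of endosomes and the actin cytoskeleton, stood at 20.96, 23.3 and 21.9 in Osi_cIGF1R and 85.5, 90.8 and 83.5 in Osi_Lin_EV, and at 12.3, 15.99 and 15.02 in vehicle. CFD went the other way, at 429.9, 424 and 581 in Osi_cIGF1R. TFF1 was lower still there, at 0, 0.281 and 0.211. NRCAM and GABRE, by contrast, stood at 6.302 and 235 FPKM in Osi_cIGF1R on average, and their differences from Osi_Lin_EV did not pass (limma adjusted p = 0.777 and 0.436).

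Type IV collagen, the network-forming collagen of basement membranes, showed the chains moving in different directions. Its 6 chains are encoded in 3 pairs of genes, each pair read outward from a shared stretch between the 2 starts. COL4A3, which with the COL4A4 and COL4A5 chains forms the network of the glomerular and alveolar basement membranes, was among the 20 rises, and the other chains were chosen after its value was seen. Because each pair shares its start region, the sequence between the RefSeq starts is shown for the 3 pairs (GRCh38.p14, plus strand), with GGGCGG and CCAAT boxes of either strand in capitals.
COL4A4 and COL4A3, chr2:227164489-227164623: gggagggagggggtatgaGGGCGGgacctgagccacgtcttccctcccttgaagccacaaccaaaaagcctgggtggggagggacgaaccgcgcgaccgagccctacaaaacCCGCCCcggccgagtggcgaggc
COL4A1 and COL4A2, chr13:110307158-110307283: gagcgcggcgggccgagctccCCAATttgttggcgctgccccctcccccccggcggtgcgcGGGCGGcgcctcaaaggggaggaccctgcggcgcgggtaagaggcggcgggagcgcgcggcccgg
COL4A6 and COL4A5, chrX:108439588-108439837: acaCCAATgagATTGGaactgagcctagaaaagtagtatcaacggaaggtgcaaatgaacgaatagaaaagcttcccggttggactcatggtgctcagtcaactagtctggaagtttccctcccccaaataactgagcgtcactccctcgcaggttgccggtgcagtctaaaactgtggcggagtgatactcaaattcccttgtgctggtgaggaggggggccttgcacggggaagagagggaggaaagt
The first stretch is the whole gap of 135 bases and holds 2 GGGCGG boxes and 0 CCAAT boxes. The second is the whole gap of 126 bases, with 1 of each. The third is the 250 bases next to the start of COL4A5 in a gap of 379 bases, with 2 CCAAT boxes and 0 GGGCGG boxes. In windows of 135, 126 and 250 bases before the start, CCAAT was found in 22.9%, 21.9% and 33.0% of 27305 RefSeq promoters, and GGGCGG in 35.6%, 34.6% and 42.3%. These matches describe the letters only.

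COL4A3 stood at 1.73, 1.29 and 1.48 FPKM in the vehicle libraries and 10.7, 11.3 and 12.6 in the treated libraries, and COL4A4, its neighbour, at 0.29, 0.334 and 0.475 against 2.59, 2.48 and 2.63. Both chains were thus low in every vehicle library and several-fold higher in every treated one (log2 fold changes 2.33, SE 0.12, and 1.39, SE 0.095, limma adjusted p = 3.71e-09 and 6.43e-08). The other pairs did not follow. COL4A1, of the common network of most basement membranes, stood at 4.78, 5.51 and 6.29 against 3.097, 3.25 and 1.47, and COL4A2, its partner, at 13.9, 17.5 and 17.6 against 10.6, 9.78 and 9.94. Both fell, by 0.89 and 0.63 on the log2 scale, with no overlap of the groups. COL4A5 rose less, to 17.4 ± 0.302 from 11.4 ± 0.688 FPKM (SD, n = 3, log2 fold change 0.56). COL4A6 stood at 1.84, 2.01 and 2.23 against 2.03, 1.72 and 1.98, overlapping (adjusted p = 0.664). In Osi_cIGF1R, COL4A3 reached only 3.41, 3.45 and 2.45 FPKM, below Osi_Lin_EV by a log2 difference of 1.62 (adjusted p = 1.24e-07), while COL4A1 and COL4A2 stood at 6.55 and 14.96, above Osi_Lin_EV (adjusted p = 0.000162 and 0.000648).

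**Figure D2:**
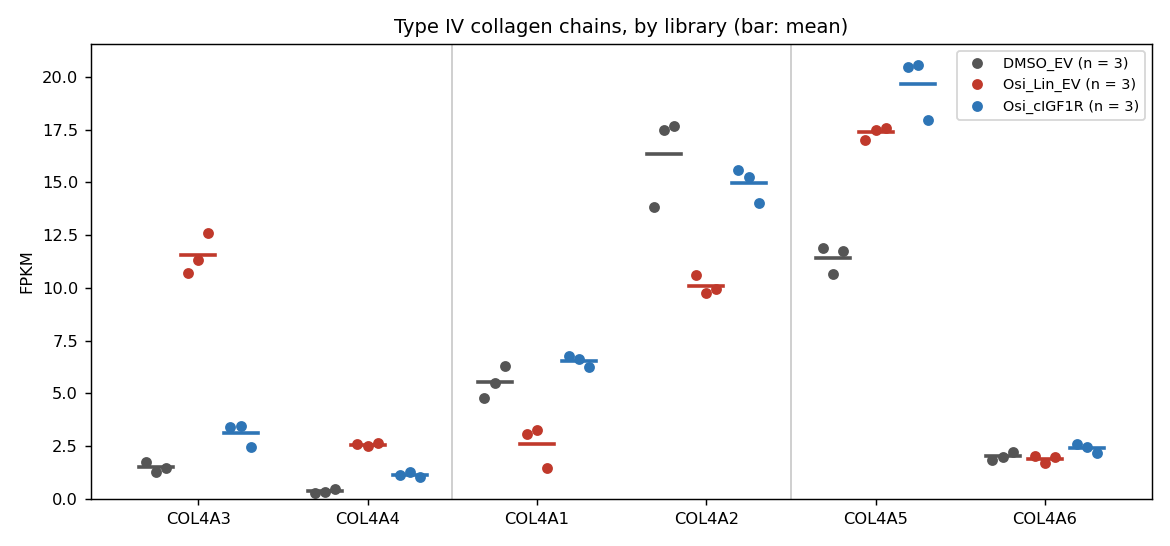
The y axis gives FPKM of the 6 type IV collagen chains, ordered by gene pair, with 1 point per library and a bar at the mean of the 3 libraries of DMSO_EV, Osi_Lin_EV and Osi_cIGF1R. COL4A3 lies between 10.7 and 12.6 in Osi_Lin_EV and below 4 elsewhere, whereas COL4A1 and COL4A2 are lowest in Osi_Lin_EV.

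Collagen IV included, 17 of 42 tested genes of collagens and matrix glycoproteins rose and 10 fell (median log2 fold change 0.18, against 0.053 of all tested genes). Of all tested genes 29.0% rose and 23.5% fell, and the share of falls in this list was near that. TNC, the tumour matrix glycoprotein tenascin C, stood at 10.8, 15.04 and 16.5 FPKM in vehicle and 2.797, 2.36 and 2.29 in treated libraries. No treated library reached the vehicle range. THBS1, an activator of latent TGF-beta, fell to 3.49 ± 0.588 from 11.2 ± 0.993, while THBS3, another thrombospondin, rose to 15.6 ± 0.24 from 4.68 ± 0.697 (SD, n = 3). COL12A1, a collagen of fibril surfaces, rose to 34.6 ± 4.14 from 14.6 ± 2.77. These last 3 were chosen after their values were seen. Of metalloproteases and their inhibitors, 11 of 22 rose and 5 fell, the latter 3 without DMSO_EV replicate 1 or without replicate 2. MMP13, a collagenase, stood at 3.98, 4.91 and 5.6 against 12.9, 11.5 and 11.4, and at 106, 107 and 111 in Osi_cIGF1R. TIMP3, the matrix-bound inhibitor, stood at 4.26, 5.17 and 6.199 against 1.49, 1.5 and 1.33. TIMP2, another inhibitor and more abundant, rose to 52.6 ± 2.39 from 33.2 ± 4.11 (SD, n = 3), so the inhibitors changed in both directions (log2 fold changes -1.34 and 0.65). Of proteoglycan genes, 11 rose and 8 fell of 34, both near the shares of all tested genes. HS6ST2, a heparan sulfate 6-O-sulfotransferase, fell to 2.21 ± 0.227 from 6.801 ± 1.79, and its paralogue HS6ST1 rose to 18.4 ± 2.003 from 9.77 ± 1.58.

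The 57 lists differed widely in their balance of rises and falls. In the chart of called members, the lists of the TRiC chaperonin and of the nuclear pore had the largest excess of falls, and those of vesicle fusion and of transmembrane serine proteases the largest excess of rises. The counts of every list below are to be read against the 29.0% of all tested genes that rose and the 23.5% that fell, and the lists were chosen with earlier results of these data known.

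**Figure D3:**
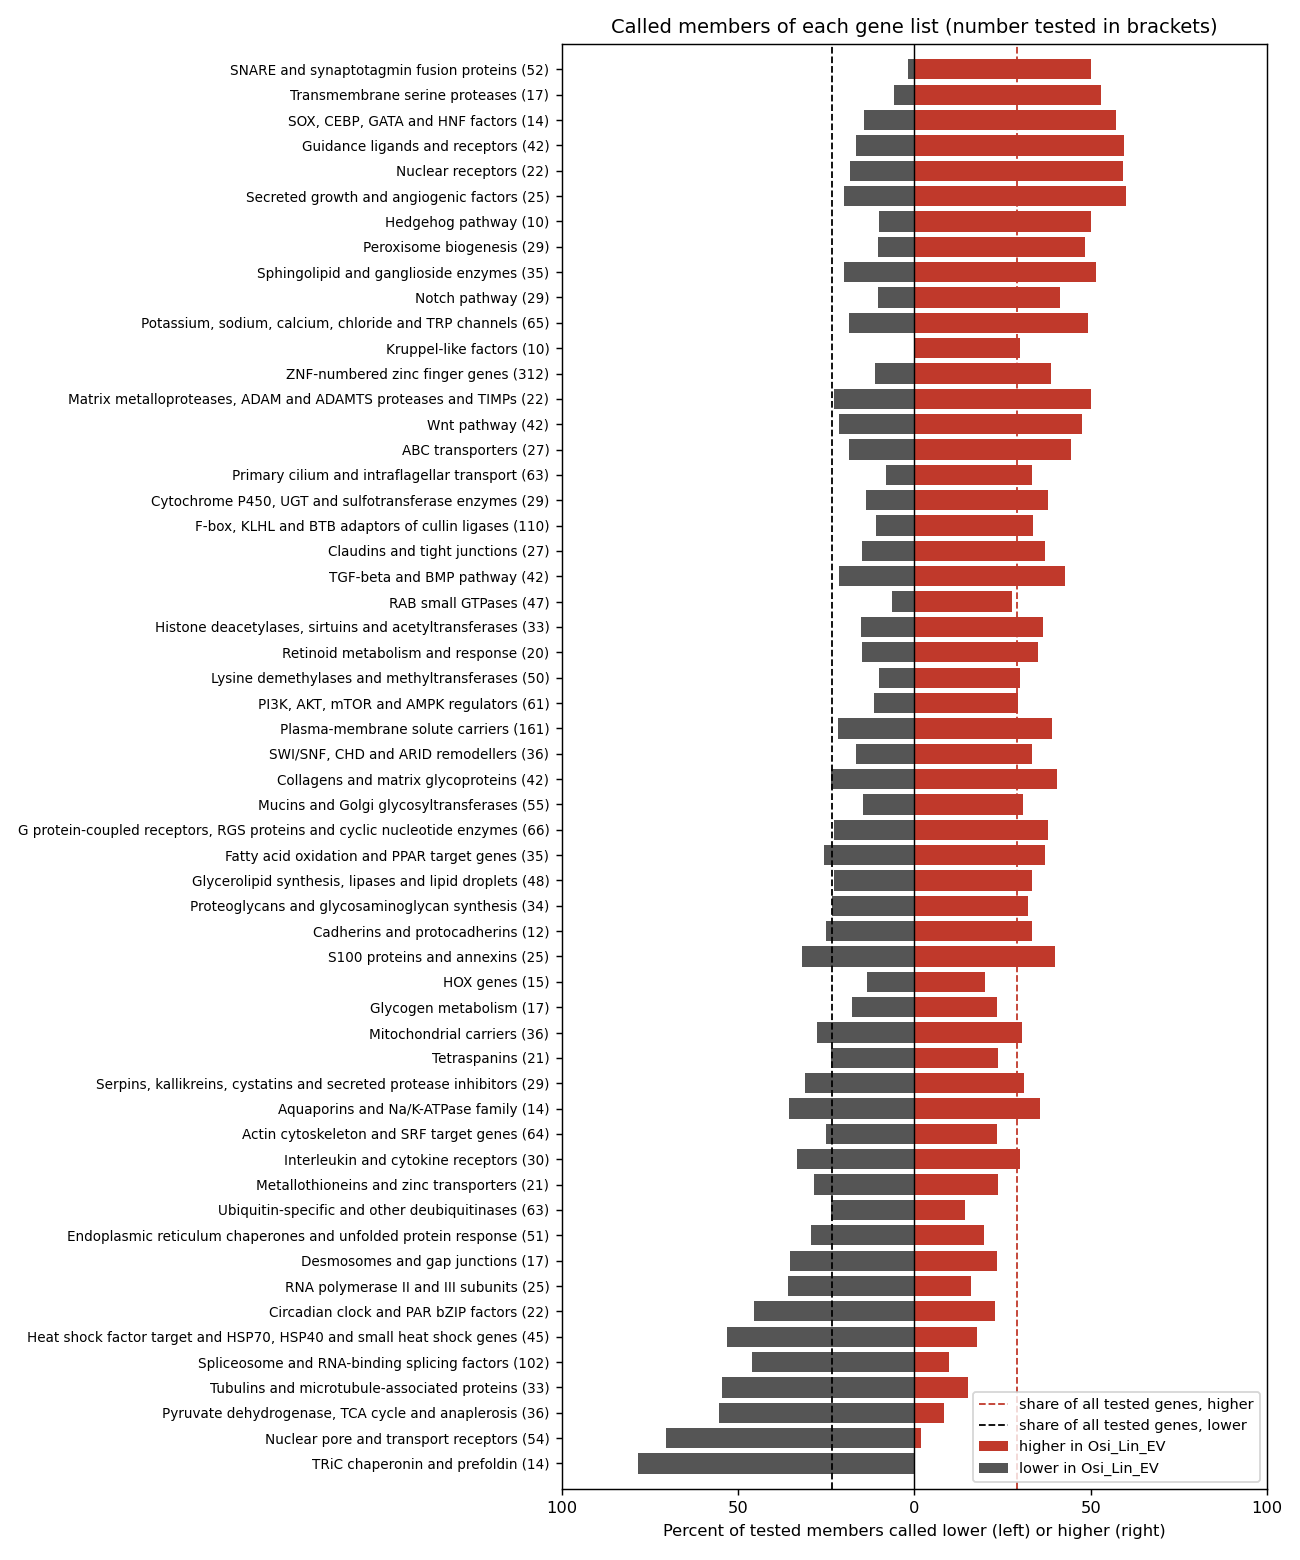
The bars give the percent of the tested members of each of 56 gene lists that were higher in Osi_Lin_EV (red, right) or lower (grey, left) at an adjusted p under 0.05, with the number tested in brackets and lists ordered by the difference. Dashed lines mark 29.0% and 23.5%, the shares of all tested genes. The longest grey bar is 11 of 14 for TRiC and prefoldin, and the list at the top, SNARE and synaptotagmin proteins, has 26 higher and 1 lower of 52.

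**Figure D4:**
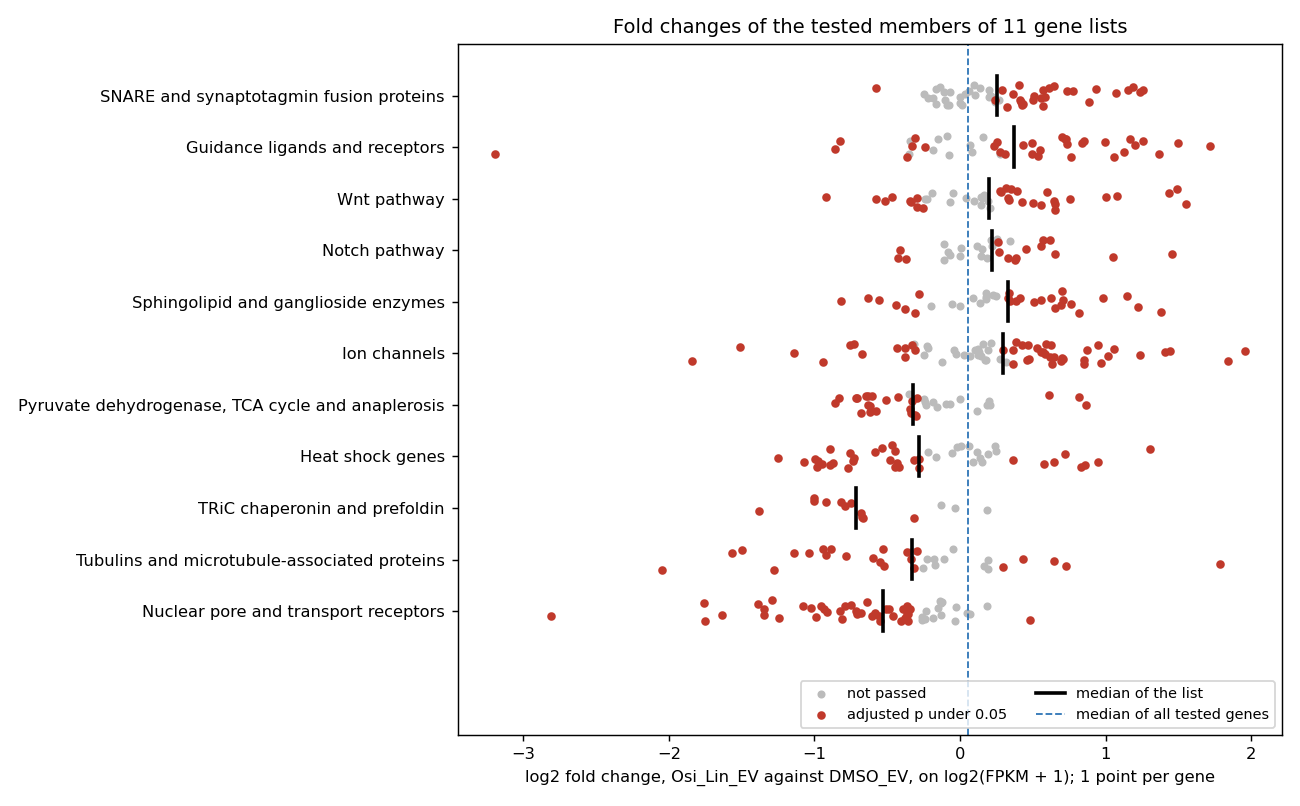
Each point is a tested gene of 1 of 11 lists, placed by its log2 fold change, red where the adjusted p was under 0.05 and grey where it was not, with the vertical spread for display only. Black bars are list medians and the dashed line the median of all tested genes. The nuclear pore and TRiC medians lie at -0.53 and -0.72, and single genes such as EPHA2 at -3.19 lie far from their list.

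Guidance proteins are ligands and receptors (semaphorins with plexins, ephrins with Eph receptors, netrins) that steer growing axons and also set adhesion and repulsion between epithelial cells. Of 42 tested, 25 rose and 7 fell (median 0.37). EPHA2, an ephrin-A receptor abundant in carcinomas, stood at 27.3, 30.3 and 28.5 FPKM in vehicle and 2.23, 2.23 and 2.28 under both drugs. It fell by 3.19 on the log2 scale (SE 0.085, limma adjusted p = 1.73e-11). EPHA2 also stands in the ERK-output list. Its ligand EFNA1 went the opposite way, at 62.7, 68.3 and 64.4 against 188, 190.4 and 179. EFNA3 and EFNA4, neighbours of EFNA1 on chromosome 1 and chosen after their values were seen, rose to 21.2 ± 0.498 from 9.197 ± 0.926 and to 20.7 ± 0.92 from 12.1 ± 0.242 (SD, n = 3). SEMA5A, a transmembrane semaphorin, stood at 0.721, 0.972 and 0.985 against 5.697, 5.29 and 4.72, and the secreted SEMA3B at 37.99, 33.5 and 26.2 against 82.6, 82.3 and 89.7. The treated libraries of both semaphorins were all above the vehicle libraries. PLXNA3, a plexin that serves as receptor for class 3 semaphorins, rose to 38.7 ± 3.76 from 15.7 ± 2.26 and was chosen after its value was seen. The count of falls was 3 without DMSO_EV replicate 2 and 4 without Osi_Lin_EV replicate 3.

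Wnt ligands act through Frizzled receptors, in part by stabilising beta-catenin, which binds TCF and LEF factors in the nucleus. Of 42 tested Wnt pathway genes, 20 rose and 9 fell. Ligands were among the largest rises. WNT4 stood at 1.204, 1.53 and 1.78 against 6.93, 6.33 and 5.68 FPKM, WNT10A at 7.32, 7.07 and 5.37 against 18.8, 19.01 and 20.5, and WNT6 at 46.7, 42.5 and 38.5 against 83.1, 89.7 and 101. In all 3 the treated libraries lay above every vehicle library, and WNT6 and WNT10A are adjacent genes on chromosome 2. WNT7A fell to 2.92 ± 0.223 from 6.42 ± 0.539, and WNT5A rose to 7.58 ± 0.547 from 3.29 ± 0.314 (SD, n = 3). TCF7L1, a TCF factor known mainly as a repressor, stood at 9.45, 10.4 and 9.58 against 28.9, 29.4 and 29.9. CTNNB1, the gene of beta-catenin, fell to 42.4 ± 4.195 from 64.7 ± 13.6 (log2 fold change -0.58, SE 0.14). WNT5A, WNT7A and CTNNB1 were chosen after their values were seen.

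Notch receptors are cut by gamma-secretase after ligand binding, and the freed domain turns on HES genes. Of 29 tested members, 12 rose and 3 fell, the latter 1 without DMSO_EV replicate 1. LFNG, a fringe glycosyltransferase that modifies Notch receptors, stood at 8.53, 9.17 and 7.53 FPKM in vehicle and 24.6, 23.6 and 26.3 in treated libraries. HES1, the best-known target, stood at 36.4, 26.7 and 23.98 against 53.2, 57.7 and 71.3. It was highest under both drugs and lowest in Osi_cIGF1R, at 12.1, 11.8 and 13.7 (log2 difference between the treated groups 2.18, limma adjusted p = 4.72e-08). The receptor genes NOTCH1, NOTCH2 and NOTCH3, chosen after their values were seen, stood at 5.34, 10.7 and 31.2 in vehicle and 6.38, 13.8 and 37.3 in treated libraries on average and did not pass, although all 3 passed without Osi_cIGF1R replicate 3. Of 10 Hedgehog pathway genes 5 rose and 1 fell. PTCH1, the Hedgehog receptor and a target of the pathway, rose to 4.58 ± 0.49 from 2.92 ± 0.17.

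TGF-beta and BMP ligands signal through SMAD proteins, with inhibitors outside and inside the cell. Here 18 of 42 genes rose and 9 fell. NOG, the secreted BMP antagonist noggin, stood at 9.73, 9.805 and 7.84 FPKM against 0.256, 0.42 and 0.409, so the treated libraries held under 5% of the vehicle mean. NOG entered the test only through the vehicle libraries. ID3, a target of BMP signalling, stood at 72.9, 83.2 and 81.1 against 259, 253 and 241. ID1, another such target, chosen after its value was seen, went the other way and fell to 9.12 ± 0.994 from 14.7 ± 1.27 (SD, n = 3). The ligand genes INHBA and GDF15 fell, to 15.1 ± 0.751 from 36.3 ± 2.38 and to 1.29 ± 0.312 from 5.83 ± 1.15. The TGF-beta-induced matrix gene TGFBI fell to 16.2 ± 0.701 from 38.8 ± 3.97, and the pseudoreceptor BAMBI rose to 20.8 ± 0.91 from 8.71 ± 0.833. Both were chosen after their values were seen.

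Of 25 secreted growth and angiogenic factors, 15 rose and 5 fell. GRN, the lysosomal and secreted protein progranulin, stood at 83.1, 101 and 94.4 FPKM in vehicle and 228, 227 and 199 in treated libraries. CCN2, the connective tissue growth factor and a known target of YAP, stood at 31.6, 28.1 and 26.8 against 58.6, 59.6 and 64.2, and at 3.23, 2.87 and 2.63 in Osi_cIGF1R. Its treated libraries thus lay above vehicle, and those of Osi_cIGF1R far below (log2 difference between the treated groups 3.98, limma adjusted p = 7.16e-13). ANKRD1, described above, fell while CCN2 rose. VEGFA, chosen after its value was seen, rose to 48.9 ± 4.13 from 25.7 ± 2.703. The neurotrophic ligand gene ARTN fell to 1.78 ± 0.362 from 7.597 ± 1.02 (SD, n = 3).

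Of 30 tested cytokine receptor genes, 9 rose and 10 fell, the latter 6 without DMSO_EV replicate 3, when rises outnumbered falls. IL17RE, the receptor subunit for the epithelial cytokine IL-17C, stood at 12.5, 11.3 and 10.2 FPKM against 39.2, 42.8 and 45.2, and IL17RC, a subunit of the IL-17A and IL-17F receptor, at 19.95, 19.5 and 17.5 against 60.1, 63.4 and 58.1. Every treated library of both lay above every vehicle library (ratios of means 3.74 and 3.19). EPOR, the erythropoietin receptor, rose to 17.5 ± 0.68 from 6.11 ± 0.928 (SD, n = 3) and stood at 6.96 in Osi_cIGF1R. IL4R and OSMR, chosen after their values were seen, fell to 7.101 ± 0.866 from 17.8 ± 0.309 and to 12.6 ± 0.712 from 23.1 ± 2.29. Among G protein-coupled receptors and their regulators, 25 of 66 rose and 15 fell, and the 4 largest changes were all falls of receptors. ADORA2B, a receptor for adenosine, stood at 11.1, 13.4 and 12.8 against 3.65, 3.75 and 2.55. ADRA1B, an alpha-adrenergic receptor, stood at 4.904, 5.62 and 6.12 against 0.613, 0.871 and 0.959. ADORA1, also an adenosine receptor, was at 1.81, 2.53 and 2.01 against 0.0289, 0 and 0.0459. Both ADRA1B and ADORA1 entered the test only through the vehicle libraries. ADGRE5, the adhesion receptor CD97, fell to 6.74 ± 1.23 from 22.2 ± 2.93. The rises numbered 15 without Osi_Lin_EV replicate 2, and the falls 9 without DMSO_EV replicate 2.

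In the pathway of PI3K, AKT, mTOR and AMPK, which lies directly below IGF1R, 18 of 61 genes rose and 7 fell, and 36 did not pass. SGK1, a kinase related to AKT that is activated through mTORC2, stood at 27.1, 21.7 and 24.7 FPKM in vehicle and 8.46, 7.56 and 7.87 in treated libraries. Its paralogue SGK2 went the other way, at 0.734, 0.513 and 0.245 against 2.23, 1.95 and 2.51. SGK2 entered the test only through the Osi_Lin_EV libraries. EIF4EBP1, the translation repressor that mTORC1 inactivates, fell to 32.7 ± 3.53 from 61.4 ± 3.26 (SD, n = 3). RHEB, the GTPase that activates mTORC1, fell to 22.01 ± 1.06 from 37.1 ± 3.33, while TSC1 and TSC2, subunits of the complex that inactivates RHEB, rose to 7.05 ± 0.468 from 4.13 ± 0.327 and to 19.5 ± 0.808 from 11.9 ± 0.808. CASTOR1, an arginine sensor that inhibits mTORC1, rose to 11.95 ± 0.617 from 6.07 ± 0.638. PIK3IP1, an inhibitor of PI3K, stood at 1.57, 1.13 and 1.55 against 4.08, 3.53 and 3.57. TSC1, TSC2, CASTOR1 and PIK3IP1 were higher, and RHEB and EIF4EBP1 lower, in the treated libraries. Genes that restrain the pathway or its output thus changed in both directions. This is a statement on RNA levels and not on the activity of the pathway. The share of rises in this list was near the 29.0% of all tested genes, and that of falls was below 23.5%. RHEB, TSC1, TSC2 and CASTOR1 were chosen after their values were seen.

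Among transcription factors, 13 of 22 nuclear receptor genes rose and 4 fell. VDR, the vitamin D receptor, stood at 4.55, 5.204 and 5.45 FPKM in vehicle and 1.38, 1.12 and 1.09 in treated libraries. Its partner in DNA binding, RXRA, rose to 35.8 ± 2.802 from 19.2 ± 1.84 (SD, n = 3). Of the SOX, CEBP, GATA and HNF list 8 rose and 2 fell of 14. CEBPA, a factor of terminal differentiation, stood at 6.27, 5.67 and 5.81 against 15.1, 17.3 and 18.02, and CEBPD rose to 13.01 ± 2.79 from 5.74 ± 1.73. The groups of CEBPA did not overlap. Of Kruppel-like factors 3 rose and 0 fell of 10. KLF2 stood at 1.41, 1.46 and 1.23 against 2.67, 4.03 and 4.95, and at 0.509, 0.546 and 0.711 in Osi_cIGF1R, below vehicle. HOXC6, of the HOX genes (3 higher, 2 lower of 15, but 3 and 4 under median-of-ratios rescaling), rose to 6.43 ± 1.21 from 2.82 ± 0.703. Zinc finger genes with ZNF numbers gave 121 rises and 35 falls of 312, and ZNF703, a co-repressor, rose to 15.8 ± 0.636 from 4.67 ± 0.214.

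The circadian clock is a loop in which CLOCK or NPAS2 with BMAL1 turns on the PER, CRY and REV-ERB genes, which then repress it. Of 22 genes, 10 fell and 5 rose. BHLHE40, a repressor in this loop, stood at 37.96, 37.4 and 41.4 FPKM against 15.7, 15.3 and 13.6, and at 52.7, 49.9 and 52.7 in Osi_cIGF1R. NPAS2 stood at 11.6, 11.6 and 11.5 against 4.23, 4.95 and 4.91, and NR1D1, which encodes REV-ERB alpha, at 3.15, 3.43 and 3.51 against 1.37, 1.203 and 1.35. The vehicle libraries of these 3 genes all lay above the treated ones. DBP and CRY2, chosen after their values were seen, rose to 11.5 ± 1.14 from 7.31 ± 0.352 and to 4.77 ± 0.116 from 3.13 ± 0.178 (SD, n = 3). The falls numbered 6 without DMSO_EV replicate 2 and 6 without Osi_Lin_EV replicate 2, and the rises 3 without Osi_cIGF1R replicate 2. The hour of harvest is not given in the labels used here.

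Chromatin regulators gave shares of rises near the 29.0% of all tested genes. Of lysine demethylases and methyltransferases 15 rose and 5 fell of 50, of deacetylases and acetyltransferases 12 and 5 of 33, and of SWI/SNF, CHD and ARID genes 12 and 6 of 36. KDM6B, which removes the repressive methyl mark of histone H3 lysine 27, rose to 19.97 ± 0.565 from 10.3 ± 0.377 FPKM (SD, n = 3). KDM5A and KDM5B, demethylases of histone H3 lysine 4 known from drug-tolerant cells, were chosen after their values were seen. KDM5A stood at 3.01, 3.201 and 3.77 against 4.31, 4.07 and 3.73, overlapping (adjusted p = 0.167), and KDM5B rose to 18.01 ± 0.685 from 13.6 ± 0.866 (log2 fold change 0.39, adjusted p = 0.00479). ARID5B showed the largest change of the remodellers, at 2.76, 3.34 and 3.57 against 11.6, 11.04 and 11.6. HDAC5, a deacetylase that signalling kinases move in and out of the nucleus, rose to 14.4 ± 0.652 from 6.59 ± 0.382.

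Genes of nuclear transport mostly fell. Importins and exportins carry cargo through the pore, and the GTPase RAN sets the direction. Of 54 tested, 38 fell and 1 rose (median -0.53), and without the 2 that also stand in the set-aside lists 36 of 52 fell. KPNA2, an importin alpha, stood at 53.2, 60.5 and 61.2 FPKM against 6.91, 7.73 and 7.77. CSE1L, which returns importin alpha to the cytoplasm, stood at 35.7, 39.5 and 48.3 against 11.7, 11.4 and 11.3, and RANBP1, a RAN-binding protein, at 67.9, 71.9 and 77.3 against 21.8, 20.9 and 19.4. In these 3 the highest treated library held under 40% of the lowest vehicle library. The scaffold nucleoporins NUP188 and NUP205, chosen after their values were seen, fell to 5.55 ± 0.0867 from 15.7 ± 1.03 and to 4.07 ± 0.247 from 11.97 ± 1.75 (SD, n = 3). XPO1, the main exportin, also chosen so, fell by only 0.51 on the log2 scale. Of 102 splicing factors 47 fell and 10 rose (median -0.25), the latter 6 without Osi_Lin_EV replicate 3. SNRPB, a core protein of spliceosomal snRNPs, fell to 164 ± 11.4 from 403 ± 22.8. Of RNA polymerase II and III subunits 9 fell and 4 rose of 25.

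Chaperones of the cytosol fell as well. TRiC is a ring of CCT subunits that folds actin and tubulin, and prefoldin hands substrates to it. Of 14 genes, 11 fell and 0 rose, and 1 rose without Osi_cIGF1R replicate 3. CCT5 stood at 136, 157 and 156 FPKM in vehicle and 60.4, 58.3 and 52.05 in treated libraries, CCT7 at 135, 155 and 149.6 against 74.5, 76.1 and 66.9, and TCP1 at 72.7, 78.6 and 88.1 against 44.1, 43.2 and 37.8. Every vehicle library lay above every treated library for the 3 subunits, at log2 fold changes of -1.38, -1.01 and -0.92. Tubulins and microtubule proteins, among them substrates of TRiC, gave 18 falls and 5 rises of 33, and 13 falls of 28 without the 5 in the set-aside lists. The rises numbered 3 without Osi_Lin_EV replicate 2. TUBA1B stood at 479, 654 and 622 against 153, 146 and 123, and TUBB4B at 431, 458 and 391 against 147, 145 and 137. Tubulin genes are near-identical to one another, so reads may have been split among them. TTLL3, a tubulin glycylase, rose to 17.8 ± 2.59 from 4.44 ± 0.729 (SD, n = 3).

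The heat shock list, of heat shock factor targets and HSP70, HSP40 and small heat shock genes, gave 24 falls and 8 rises of 45. HSPA8, the constitutive HSP70, stood at 223, 334 and 371 FPKM in vehicle and 159, 147 and 126 in treated libraries, and HSP90AB1, the constitutive HSP90, at 434, 492 and 522 against 255, 249 and 221. The lowest vehicle library of each was above the highest treated one. FKBP5, a co-chaperone of HSP90 and target of the glucocorticoid receptor, fell to 0.346 ± 0.0914 from 2.22 ± 0.336, while HSF4, a heat shock factor known from lens, rose to 37.4 ± 3.26 from 14.7 ± 3.24 (SD, n = 3). FKBP5 entered the test only through the vehicle libraries. HSPA5, the HSP70 of the endoplasmic reticulum, stood at 89.4, 95.9 and 108 against 51.9, 49.6 and 45.2, and at 147, 150 and 171 in Osi_cIGF1R, above vehicle. Of endoplasmic reticulum chaperones and unfolded protein response genes 15 fell and 10 rose of 51.

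The heat shock element, the triplets GAA, TTC and GAA in a row with 2 bases of any kind between neighbours, on either strand, was sought in the 250 bases before the RefSeq start of the heat shock and TRiC genes. It is where heat shock factors bind, and the 4 matches are shown because HSPA8 is among them, in 43 bases each, 5′ to 3′ on the strand of the gene (GRCh38.p14), with matches in capitals.
HSPA8, chr11:123062339-123062381, minus strand: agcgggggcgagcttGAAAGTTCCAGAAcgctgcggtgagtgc
CHORDC1, chr11:90223082-90223124, minus strand: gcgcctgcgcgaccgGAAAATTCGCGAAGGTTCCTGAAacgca
DNAJB6, chr7:157336858-157336900, plus strand: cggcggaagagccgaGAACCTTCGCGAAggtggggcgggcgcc
HSPA6, chr1:161524451-161524493, plus strand: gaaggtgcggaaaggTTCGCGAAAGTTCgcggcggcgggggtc
In CHORDC1 3 matches overlap into 1 run. The match was found in 4 of 59 members with a window and in 0.439% of 27305 RefSeq promoters. The heat shock list was drawn up in part from targets of heat shock factors, so its larger share is no result of these data. Of the 4, HSPA6 did not pass the filter on low values. CHORDC1, an HSP90 co-chaperone, fell to 6.02 ± 0.404 from 9.19 ± 1.01 FPKM and DNAJB6, an HSP40, to 40.9 ± 4.84 from 51.2 ± 7.12 (SD, n = 3, log2 fold changes -0.53 and -0.31, limma adjusted p = 0.000462 and 0.0371). DNAJB6 did not pass without DMSO_EV replicate 2 or 3 or without Osi_Lin_EV replicate 2 or 3. CHORDC1, DNAJB6 and HSPA6 are named for the match. The matches are letters, not shown sites of binding.

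Genes of vesicle fusion went the other way. SNARE proteins fuse vesicles with their target membrane, and synaptotagmins and synaptotagmin-like proteins tie this to calcium and to RAB GTPases. Of 52 tested, 26 rose and 1 fell (median 0.26). The falls numbered 4 under median-of-ratios rescaling, and 2 without Osi_cIGF1R replicate 3. SYTL2, an effector of RAB27, stood at 1.69, 1.56 and 2.08 FPKM against 5.998, 5.98 and 4.97, and VAMP5, a SNARE of the plasma membrane, at 2.65, 3.23 and 2.64 against 8.08, 6.69 and 8.51. All treated libraries of both exceeded all vehicle libraries. VAMP8, an endosomal and secretory SNARE, and SYT7, a calcium sensor of lysosome exocytosis, were chosen after their values were seen. VAMP8 rose to 139.8 ± 6.12 from 91.3 ± 2.08, and SYT7 to 11.3 ± 0.874 from 4.88 ± 0.608 (SD, n = 3), while SYT7 stood at 5.21 in Osi_cIGF1R. The single fall was SYTL4, another effector of RAB27 chosen after its value was seen, which fell to 1.67 ± 0.538 from 2.93 ± 0.27. Of RAB GTPases 13 rose and 3 fell of 47, with 20 rises without DMSO_EV replicate 3 and 6 falls without DMSO_EV replicate 1. RAB26, of secretory granules, rose to 36.4 ± 5.52 from 14.9 ± 3.72.

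Ion channels rose in 32 and fell in 12 of 65 tested. KCNJ13, an inward rectifier potassium channel of transporting epithelia, stood at 0.0313, 0.095 and 0.0308 FPKM in vehicle and 2.75, 3.09 and 3.45 in treated libraries. KCNJ12, another inward rectifier, stood at 2.77, 3.08 and 2.68 against 0.0532, 0.0571 and 0.101, the reverse pattern. KCNJ12 entered the test only through the vehicle libraries. CLIC3, a chloride intracellular channel protein, stood at 85.7, 88.8 and 70.5 against 286, 308 and 287, and was the most abundant of the 4 channels named by the rule. ANO1, a calcium-activated chloride channel, fell to 12.4 ± 0.379 from 37.5 ± 5.67, and the calcium channel TRPV6, chosen after its value was seen, rose to 8.62 ± 0.445 from 2.56 ± 0.605 (SD, n = 3). Calcium pumps and a water channel led a small list with 5 rises and 5 falls of 14, the falls 3 without DMSO_EV replicate 3 or without Osi_Lin_EV replicate 3. ATP2A3, a calcium pump of the endoplasmic reticulum, stood at 4.86, 5.08 and 5.396 against 24.7, 22.9 and 22.2. AQP3, which carries water and glycerol, stood at 1.87, 3.21 and 3.03 against 10.3, 10.3 and 9.57, and higher still in Osi_cIGF1R, at 32.98, 34.8 and 37.3.

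Solute carriers of the plasma membrane and other membranes gave 63 rises and 35 falls of 161. SLC29A3, a nucleoside transporter of lysosomes and mitochondria, stood at 13.1, 14.6 and 14.9 FPKM against 40.6, 39.4 and 36.4. SLC40A1, the iron exporter ferroportin, was chosen after its value was seen and rose to 3.13 ± 0.527 from 0.8 ± 0.201 (SD, n = 3). The zinc importer SLC39A10 stood at 6.63, 8.03 and 10.04 against 1.497, 1.82 and 1.51, and the zinc exporter SLC30A1 at 0.631, 0.811 and 0.89 against 2.86, 2.59 and 2.37. SLC39A13, a zinc transporter of the same family as SLC39A10 and more abundant, rose to 33.9 ± 0.289 from 16.3 ± 1.8 (SD, n = 3). The SLC39 family thus held changes in both directions. MT1F, a metallothionein that binds zinc, rose to 42.2 ± 2.81 from 11.4 ± 1.25, with the limit that metallothionein genes are close copies. In the list of both, 5 rose and 6 fell of 21, the falls 3 without DMSO_EV replicate 2 and 2 without Osi_Lin_EV replicate 3.

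At the cell surface, 9 of 17 transmembrane serine proteases and related proteases rose. TMPRSS6, which cleaves hemojuvelin in the control of iron, stood at 1.54, 1.02 and 0.686 FPKM against 7.55, 7.33 and 7.08, and TMPRSS2, an epithelial protease, at 0.443, 0.481 and 0.539 against 3.89, 3.73 and 3.54. The treated libraries of both lay above every vehicle library. Of serpins, kallikreins and other inhibitors 9 rose and 9 fell of 29. PI3, the elastase inhibitor elafin, fell to 120.1 ± 6.29 from 365 ± 28.1. Kallikrein KLK5 rose to 164 ± 8.64 from 76.9 ± 6.12, and KLK6 of the same gene cluster, chosen after its value was seen, fell to 200.2 ± 15.5 from 343 ± 37.5 (SD, n = 3).

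Mucins and Golgi glycosyltransferases rose in 17 and fell in 8 of 55, the falls 5 under equal totals without mitochondrial mRNAs. MUC1, a transmembrane mucin, stood at 12.1, 11.8 and 10.4 FPKM against 41.2, 37 and 35.6, and MUC20, another, at 16.8, 18.3 and 18.2 against 63.1, 64.7 and 62.1. Both were higher still in Osi_cIGF1R, at 77.8 and 171 on average. Of tight junction genes 10 rose and 4 fell of 27. CLDN1 stood at 9.66, 10.04 and 11.97 against 3.83, 3.34 and 3.405, and CLDN3 at 23.2, 22.9 and 19.5 against 45.8, 45.1 and 45.8, so these 2 claudins changed in opposite directions with no overlap. AMOT, a scaffold that binds YAP, rose to 10.1 ± 1.83 from 2.28 ± 0.554 (SD, n = 3). Of desmosome and gap junction genes 6 fell and 4 rose of 17. Of 12 cadherin genes 4 rose and 3 fell, the falls 1 without DMSO_EV replicate 2 or without replicate 3. CDH5, a cadherin best known from endothelium, stood at 3.18, 3.26 and 3.68 against 0.151, 0.16 and 0.0323, while other endothelial markers, PECAM1 and VWF, were under 1 FPKM throughout. The endothelial list summed to 5.74 to 5.97 FPKM against 1.48 to 2.04, with 1 lower and 0 higher of 2 tested. Of S100 proteins and annexins 10 rose and 8 fell of 25, but 8 rose and 10 fell under median-of-ratios rescaling. ANXA1, an annexin that is a substrate of EGFR, stood at 105, 110 and 112 against 29.3, 31.6 and 28.1.

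For the cytoskeleton, RHOV, an atypical small GTPase, stood at 11.3, 10.1 and 9.08 FPKM against 28.1, 29.1 and 30.2. RHOU, a close relative chosen after its value was seen, stood at 0.586, 0.515 and 0.65 against 3.23, 3.13 and 2.97. With RHOB, 3 small GTPases were thus higher in every treated library. Of actin and SRF target genes 15 rose and 16 fell of 64, and under quantile normalization 19 rose and 16 fell. The falls numbered 10 without Osi_Lin_EV replicate 3. MYL9, a myosin light chain, rose to 10.4 ± 0.274 from 3.43 ± 0.4 (SD, n = 3). Of primary cilium genes 21 rose and 5 fell of 63, the falls 2 without DMSO_EV replicate 3 or without Osi_Lin_EV replicate 2 and 3 without Osi_Lin_EV replicate 3. IFT172, of the intraflagellar transport complex, rose to 5.49 ± 0.329 from 2.96 ± 0.0488.

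In central metabolism, falls outnumbered rises. Of 36 genes of pyruvate dehydrogenase, the cycle and anaplerosis, 20 fell and 3 rose. GOT1, an aspartate aminotransferase, stood at 14.4, 16.1 and 16.99 FPKM against 7.86, 8.92 and 7.96. Citrate synthase, CS, and malate dehydrogenase, MDH2, chosen after their values were seen, fell to 37.9 ± 2.77 from 60.2 ± 8.38 and to 82.7 ± 7.28 from 134 ± 20.9 (SD, n = 3). Against this, IDH1, the cytosolic isocitrate dehydrogenase, stood at 32.9, 41.1 and 48.9 against 81.3, 75.5 and 67.2, and PDK2, a kinase that inhibits pyruvate dehydrogenase, at 4.73, 5.85 and 5.32 against 10.97, 10.7 and 8.71. The treated libraries of both were above all vehicle libraries.

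Of 35 sphingolipid and ganglioside enzymes, 18 rose and 7 fell (median 0.33). Ceramide is made by ceramide synthases, and sphingosine-1-phosphate is made from its backbone by sphingosine kinases and removed by a lyase and phosphatases. CERS4, a ceramide synthase, stood at 8.36, 8.97 and 9.49 FPKM against 22.4, 22.2 and 21.97, and SGPL1, the lyase, at 12.9, 15.1 and 15.8 against 34.7, 33.8 and 32.1. SGPP1, a phosphatase, rose to 25.1 ± 1.25 from 12.3 ± 2.54, and ARSA, the lysosomal sulfatase of sulfatides, to 20.4 ± 1.42 from 7.24 ± 1.07 (SD, n = 3). SPHK1, the kinase that makes sphingosine-1-phosphate, was chosen after its value was seen and stood at 9.299, 8.98 and 9.35 against 4.6, 5.43 and 4.37. SGPL1 and SGPP1 were thus higher and SPHK1 lower in every treated library, while SPHK1 stood at 9.96 in Osi_cIGF1R.

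Of peroxisome genes 14 rose and 3 fell of 29, the falls 5 under median-of-ratios rescaling. PEX11A, which promotes division of peroxisomes, stood at 3.47, 3.53 and 3.66 FPKM against 7.98, 8.56 and 8.09. PHYH, the hydroxylase of phytanic acid oxidation, rose to 4.54 ± 0.492 from 2.09 ± 0.132. Of fatty acid oxidation and PPAR target genes 13 rose and 9 fell of 35. ACSL3, an acyl-CoA synthetase of lipid droplets, fell to 17.7 ± 0.567 from 39.1 ± 7.14, and ACOX3, a peroxisomal oxidase, rose to 10.9 ± 0.663 from 4.93 ± 0.708 (SD, n = 3). Glycerolipid genes gave 16 rises and 11 falls of 48. LIPG, the endothelial lipase gene, stood at 3.89, 3.905 and 3.995 against 0.0415, 0.0529 and 0.0666, under 0.1 FPKM in all treated libraries. LIPG entered the test only through the vehicle libraries. PNPLA2, the main triglyceride lipase, stood at 40.7, 41 and 43.1 against 81.8, 90.5 and 80.8. LPIN1, a phosphatidate phosphatase, fell to 2.01 ± 0.271 from 5.8 ± 0.421 and stood at 6.41 in Osi_cIGF1R. PNPLA2 and LPIN1 were chosen after their values were seen.

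In protein turnover, of F-box, KLHL and BTB adaptors 37 rose and 12 fell of 110, and of deubiquitinases 9 rose and 15 fell of 63. For the latter, 12 rose and 11 fell without DMSO_EV replicate 3. FBXL8, an F-box protein, stood at 16.3, 15.7 and 12.1 FPKM against 35.5, 40.6 and 36.7. USP1, which acts on FANCD2 and PCNA in DNA repair, stood at 5.801, 7.83 and 9.22 against 3.54, 3.28 and 3.21. The adaptor was higher and the deubiquitinase lower in every treated library.

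Several members lay next to each other in the genome, and 2 regions were looked at after their values were seen, with positions from RefSeq (GRCh38.p14). The ends of the regions were also set with the values known. The shares of rises and falls in them are thus descriptions and no test. On chromosome 1, from 155001750 to 155289848, 18 genes from ZBTB7B to HCN3 were tested. Of these, 14 rose, 0 fell and 4 did not pass, where 29.0% of all tested genes rose. The ephrin genes EFNA4, EFNA3 and EFNA1, MUC1 and THBS3 lie here. The log2 fold changes of EFNA3, MUC1 and THBS3 were 1.13, 1.65 and 1.55, whereas MTX1 and SCAMP3, close by, gave 0.036 and 0.11 and did not pass. THBS3 overlaps its antisense gene THBS3-AS1 and the start of MTX1, and DCST1-AS1 overlaps ADAM15 and the start of EFNA4. Whether the counting used strand is not known. On chromosome 11, from 69048932 to 70436575, 9 genes from TPCN2 to CTTN were tested, of which 7 fell and 0 rose, where 23.5% of all tested genes fell. FADD, an adaptor of death receptors, did not pass without DMSO_EV replicate 2 or 3 or without Osi_Lin_EV replicate 3. MYEOV, LOC105369370, CCND1 and ANO1 gave log2 fold changes of -3.93, -3.18, -2.83 and -1.51. The genes at both ends of this region, TPCN2 and CTTN, did not pass: TPCN2, an ion channel of lysosomes, stood at 5.36, 4.95 and 4.83 FPKM against 5.85, 6.38 and 5.43 (adjusted p = 0.115).

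**Figure D5:**
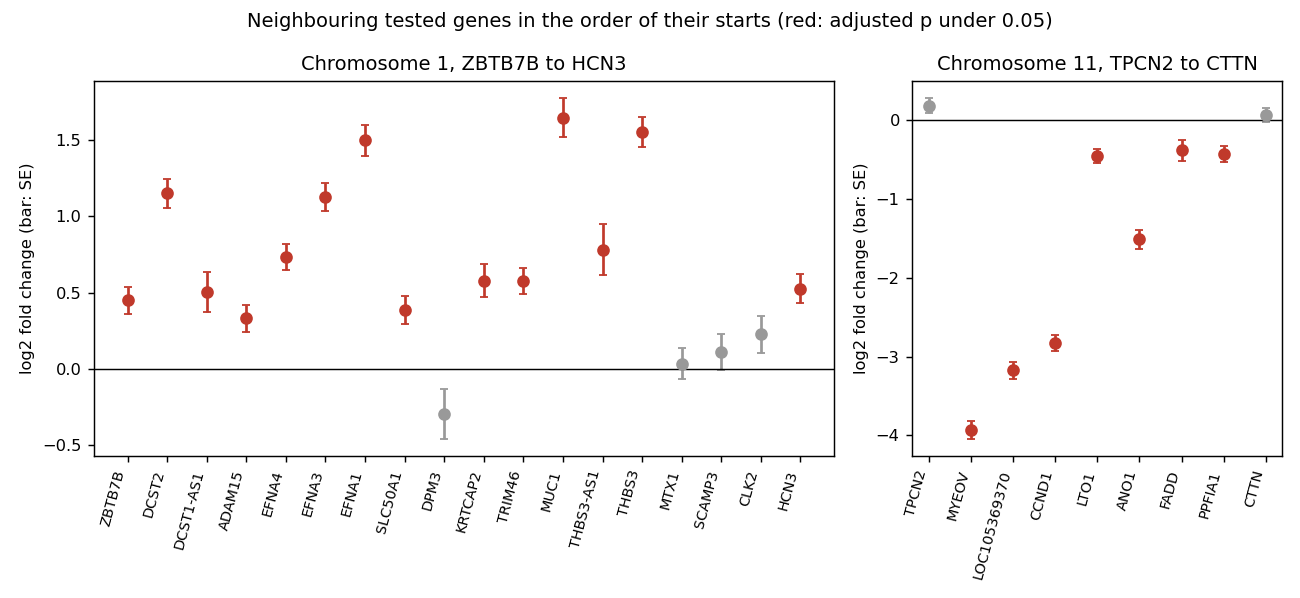
The y axis gives the log2 fold change of Osi_Lin_EV against DMSO_EV with its SE, for neighbouring tested genes in the order of their starts, in red where the adjusted p was under 0.05. On the chromosome 1 panel 14 of 18 genes lie above 0 in red, and on the chromosome 11 panel 7 of 9 lie below 0 in red, from -3.93 for MYEOV to -0.38 for FADD.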

How the data were processed

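RNA was sequenced from 9 H1975 libraries, 3 per group, and deposited by the authors as 1 table of FPKM values per gene. The unit is inferred from the values, since the file names none, and read depth is unknown. The submitters' processing notes name hg38, Bowtie2 2.1.0, STAR and edgeR, without a role or order. The extraction protocol shared by all samples names RNase R and 3 days, whereas these samples are labelled 8 days. The 913 genes at 0 in every library were left out. Of 34021 genes, 13775 with 1 FPKM or more in at least 3 of 9 libraries were tested, and 31617 symbols (92.9%) matched RefSeq.

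The test was limma's (version 3.58.1, R 4.3.3) on log2(FPKM + 1), with 1 fit over the 9 libraries, trended and robust variance, Benjamini-Hochberg adjustment over all tested genes, threshold 0.05. No count test was run, as whole reads could not be recovered. On simulated data the fit called 97 of 100 genes changed by 1 and 98 of 100 changed by 2 on the log2 scale, and 14 of 209 calls were false. The simulation used independent normal noise and changed only 200 of 13775 genes, whereas 52.6% were called in the data. Its share of false calls therefore does not carry over to the calls reported here. Same-numbered libraries did not pair (correlations of deviations -0.31, 0.04 and -0.21). Some results are not reported here.

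The members, 57 gene lists, 8 marker lists and 3 lists set aside were chosen with earlier results of these data known. Genes named are the 20 largest rises and the 20 largest falls outside the lists set aside (groups not overlapping, higher mean at least 5 FPKM), up to 4 called members of each list by size of change (higher mean at least 2 FPKM), and the markers. Alternatives were other scalings, filters, pseudocounts, variance models, a replicate block and leaving out each library. Equal totals without mitochondrial mRNAs was chosen after seeing the data. Sequences and positions are RefSeq's for GRCh38.p14.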

Additional observations from a re-analysis of the deposited data

How the results depend on the processing

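At an absolute log2 fold change of at least 1, 503 genes rose and 763 fell. The other counts of all genes stayed within 1.5 times the main ones. Leaving out 1 library gave 3286 to 4283 rises and 2620 to 3492 falls. Median-of-ratios rescaling gave 3548 rises and 3684 falls, so 49.1% of calls were higher against 55.2%. The replicate block gave 3757 and 3081. Replicate numbers did not pair the samples, and not every library correlated best with its own number.

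Of 287 genes named by the rule, 273 were called. Of these, 268 were called in each of up to 19 settings that tested them, 5 lost the call in at least 1 (KLF7, PGM2, GSK3A, NAPSA and CEACAM5), and 0 changed sign. Of 45 called genes chosen after their values were seen, 43 were called in each setting that tested them. DNAJB6 and FADD lost the call in at least 1, and none of the 45 changed sign. Sign changes were found in genes that did not pass. They were EPCAM at 0.0177 under quantile normalization, CD68 at 0.0322 under equal totals, and under median-of-ratios rescaling EMP2 at -0.0211, AGER at -0.0204 and MTX1 at -0.0202. Leaving out 1 library gave ranges that cross 0: EMP2 -0.0958 to 0.102, AGER -0.0705 to 0.128, ACTA2 -0.151 to 0.0349, CD14 -0.328 to 0.0252, CD68 -0.117 to 0.0763, MTX1 -0.0234 to 0.129, and NRCAM between the treated groups -0.143 to 0.0323. The cause of these changes was not tested. A filter at 5 FPKM tests only 8527 genes, so its list counts are lower by construction. With depth unknown, levels under 1 FPKM carry no known precision.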

Other observations

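Some gene groups not described above also held called members. Of 21 tetraspanins 5 rose and 5 fell, and under quantile normalization 9 rose. CD82, a tetraspanin known as a suppressor of metastasis, stood at 3.74, 5.66 and 4.59 FPKM in vehicle and 18.9, 14.6 and 13.4 in treated libraries. Of 20 genes of retinoid metabolism and response 7 rose and 3 fell. PLAAT4, a phospholipase induced by retinoids and interferon, stood at 4.15, 5.09 and 3.86 against 14.5, 15.4 and 12.8, and at 266, 275 and 376 in Osi_cIGF1R. Both genes were higher in every treated library than in any vehicle library. Of 29 cytochrome P450, UGT and sulfotransferase genes 11 rose and 4 fell. UGT1A6, a glucuronosyltransferase whose exons are shared with other UGT1A genes, rose to 163 ± 17.8 from 64.2 ± 7.43 (SD, n = 3). EPHX1, the microsomal epoxide hydrolase, rose to 205 ± 8.46 from 123 ± 2.404.

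Of 36 mitochondrial carriers 11 rose and 10 fell. SLC25A29, a carrier of basic amino acids, stood at 21.8, 17.6 and 15.3 FPKM in vehicle and 37.99, 45.8 and 44.9 in treated libraries, with no overlap. Of 27 ABC transporters 12 rose and 5 fell, the falls 3 without DMSO_EV replicate 2 or 3, without Osi_Lin_EV replicate 1 or 2 and with the replicate block. ABCE1, which recycles ribosomes and transports nothing, fell to 2.03 ± 0.187 from 7.98 ± 1.69, and ABCC2, an exporter of conjugates, is listed at 45.04, 39.9 and 39.7 against 20.9, 21.2 and 23.9. Of 17 glycogen genes 4 rose and 3 fell, but under median-of-ratios rescaling 4 rose and 5 fell. Without DMSO_EV replicate 1 the falls numbered 6, without DMSO_EV replicate 2 or 3 they numbered 1, and without Osi_Lin_EV replicate 3 they numbered 0.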
